A study of Mus musculus with 29 samples.

Results

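The genes examined here encode the mouse receptors for the constant part of immunoglobulin G (IgG): the activating receptors Fcgr1, Fcgr3 and Fcgr4, the inhibitory receptor Fcgr2b, the signalling adapter Fcer1g and the neonatal Fc receptor heavy chain Fcgrt. All 6 genes were found in GENCODE vM21 (GRCm38). Every region of the 25 deposited peak lists that touched a gene body or the 20 kb on either side was taken, which gave 488 of 1008691 distinct regions. The lists come from CUT&RUN, in which an antibody guides a protein A-nuclease fusion to a chromatin protein and the released DNA is sequenced, and no RNA was measured. The transcription factor IRF8 was mapped through its GFP tag with an anti-GFP antibody in sorted cells of female IRF8-EGFP mice: microglia, the resident macrophages of the brain, at postnatal day 9 (P9, 4 libraries), at postnatal day 14 (P14, 3) and in adults (3), and peritoneal macrophages (3), whose source label reads microglia but whose titles were followed. Microglia of adult female mice, either wild type (WT) or of the strain labelled IRF8KO (KO), were profiled for the transcription factor PU.1, for H3K27ac and for H3K4me1, with 2 libraries for each target and genotype. The adults were 3 months old per the labels. The labels do not give the knockout allele, and no IRF8 library of KO cells was analysed here, so the KO label was not checked. Nothing says that libraries of a group came from separate animals, so a p-value measures only the spread between these libraries. In these bulk samples, fewer cells with a bound site and weaker binding per cell cannot be told apart.

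Fcgr1 is the high-affinity IgG receptor, and Fcgr3 and Fcgr4 are lower-affinity receptors. These activating receptors signal through the gamma chain encoded by Fcer1g, whose cytoplasmic motif recruits the kinase Syk after immune complexes are bound. Fcgr2b carries an inhibitory motif and recruits the phosphatase encoded by Inpp5d, which dampens the same pathway. Fcgrt protects IgG and albumin from degradation by recycling them from endosomes. In the brain these receptors are best known on microglia and border macrophages, where they take part in the uptake of antibody-coated material. PU.1 is the ETS family factor that opens macrophage enhancers, and IRF8 binds DNA with PU.1 at composite ETS-IRF sites. H3K4me1 marks enhancers in general and H3K27ac marks active enhancers and promoters.

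The genes lie at 4 places. Fcgr2b (chr1:170958617-170976547, minus strand), Fcgr4 (chr1:171018920-171029761, plus strand) and Fcgr3 (chr1:171051174-171064935, minus strand) form a cluster, and Fcer1g (chr1:171229572-171234365, minus strand) lies further along the same chromosome. Fcgr1 is at chr3:96282909-96293969 (minus strand) and Fcgrt at chr7:45092990-45103851 (minus strand). The windows also hold other protein-coding genes, among them Hist2h4, Hist2h3b and Hist2h2bb beside Fcgr1, Nr1i3, Tomm40l, Apoa2 and Adamts4 beside Fcer1g, and Nosip and Rcn3 beside Fcgrt. A region is therefore assigned by position and not by target gene. IRF8 and PU.1 regions that touched each other across the 17 libraries of these 2 factors were merged into 61 elements, of which 30 had a region in 1 library only.

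For each gene, the adult IRF8 consensus region (merged peaks supported by 2 or more libraries of a group) of highest rank is shown as 300 bases around its strongest summit, because these are the sites the results below turn on. Rank is the percentile of the authors' −log10 p within a list, averaged over libraries, with 100 the strongest. Sequences are from GRCm38.p6, written 5′ to 3′ on the strand of the named gene, with annotated UTR left out. Capitals mark matches to a composite ETS-IRF motif (GGAA and GAAA with any 2 bases between), an interferon response-like motif (GAAA and GAAA with any 2 bases between) or an ETS motif (AGGAAGT), each searched on both strands; matches may overlap.
Fcgr4, intergenic element between Fcgr2b and Fcgr4, chr1:170997903-170998202, plus strand: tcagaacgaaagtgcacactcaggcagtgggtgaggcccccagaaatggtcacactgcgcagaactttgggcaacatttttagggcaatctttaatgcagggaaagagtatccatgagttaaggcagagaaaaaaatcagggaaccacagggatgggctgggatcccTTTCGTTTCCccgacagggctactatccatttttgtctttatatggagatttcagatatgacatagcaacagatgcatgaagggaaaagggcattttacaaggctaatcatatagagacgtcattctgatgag
Fcgr1, intergenic upstream element, chr3:96300989-96301288, minus strand: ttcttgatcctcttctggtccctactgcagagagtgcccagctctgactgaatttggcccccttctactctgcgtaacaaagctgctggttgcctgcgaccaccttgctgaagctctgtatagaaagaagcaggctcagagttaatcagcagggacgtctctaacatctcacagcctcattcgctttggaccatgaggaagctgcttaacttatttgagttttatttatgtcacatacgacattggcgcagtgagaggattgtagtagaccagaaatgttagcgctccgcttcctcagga
Fcgr3, element in the gene body just before the RefSeq start, chr1:171059404-171059531, minus strand: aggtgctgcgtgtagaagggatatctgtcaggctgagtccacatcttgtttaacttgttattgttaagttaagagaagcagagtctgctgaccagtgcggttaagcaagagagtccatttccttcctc
Fcer1g, element at the transcription start, chr1:171234415-171234714, minus strand: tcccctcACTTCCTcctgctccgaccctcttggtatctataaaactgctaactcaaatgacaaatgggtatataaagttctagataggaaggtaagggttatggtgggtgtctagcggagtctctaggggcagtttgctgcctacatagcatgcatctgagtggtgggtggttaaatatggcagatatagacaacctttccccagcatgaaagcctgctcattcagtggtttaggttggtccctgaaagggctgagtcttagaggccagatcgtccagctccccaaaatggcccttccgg
Fcgr2b, intergenic upstream element, chr1:170985179-170985478, minus strand: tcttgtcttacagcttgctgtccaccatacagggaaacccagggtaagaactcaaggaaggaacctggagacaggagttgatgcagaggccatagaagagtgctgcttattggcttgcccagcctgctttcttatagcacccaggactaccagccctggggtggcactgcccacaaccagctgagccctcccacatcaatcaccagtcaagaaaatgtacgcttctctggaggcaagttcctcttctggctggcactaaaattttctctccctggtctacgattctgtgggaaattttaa
Fcgrt, intergenic upstream element, chr7:45117692-45117991, minus strand: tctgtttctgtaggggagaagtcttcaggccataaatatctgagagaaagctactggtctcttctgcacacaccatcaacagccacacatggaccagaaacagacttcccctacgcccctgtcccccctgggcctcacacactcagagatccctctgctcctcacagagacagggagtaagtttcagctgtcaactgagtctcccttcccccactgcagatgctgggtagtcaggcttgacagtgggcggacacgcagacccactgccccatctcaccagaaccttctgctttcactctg
Of these, the composite motif was found in the element between Fcgr2b and Fcgr4, as GGAAACGAAA on the strand opposite to the one shown (chr1:170998070-170998079), and the ETS motif in the Fcer1g element. Among the 26 adult IRF8 consensus regions in the windows, 1 window of 300 bases held the composite motif, 2 the interferon response-like motif and 3 the ETS motif, against 9.61%, 5.72% and 21.1% of the windows at all 16934 adult IRF8 consensus regions on placed chromosomes. A match is a string in a window and does not show a bound site.

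Promoters are shown for Fcgr4 and Fcgr1, where a PU.1 consensus region of each genotype overlapped the promoter and a motif match was found. The sequences are those of RefSeq (GRCm38.p6), whose table held 7 promoter entries for the 6 genes, and run up to the first annotated transcript base.
Fcgr4 promoter, chr1:171018676-171018919, plus strand: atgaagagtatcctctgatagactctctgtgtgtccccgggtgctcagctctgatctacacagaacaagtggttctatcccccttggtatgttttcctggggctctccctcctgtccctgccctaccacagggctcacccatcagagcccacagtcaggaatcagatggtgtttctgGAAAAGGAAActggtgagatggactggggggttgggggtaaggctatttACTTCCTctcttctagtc
Fcgr1 promoter, chr3:96293970-96294219, minus strand: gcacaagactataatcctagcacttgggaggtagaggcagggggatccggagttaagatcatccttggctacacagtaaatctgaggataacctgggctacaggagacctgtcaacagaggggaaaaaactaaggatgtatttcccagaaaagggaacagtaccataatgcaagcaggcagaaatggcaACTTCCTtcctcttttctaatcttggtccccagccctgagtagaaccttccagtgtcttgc
The Fcgr4 promoter held 1 interferon response-like and 1 ETS match, and the Fcgr1 promoter 1 ETS match. These motifs occurred in 2.98% and 7.69% of the 250 bases upstream of all 32851 RefSeq starts. The composite motif occurred in 2.30% of them and, among the 7 entries, in that of Fcgr2b only, within annotated UTR that is not shown.

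IRF8 regions near the Fc receptor genes were few at P9 and more numerous at P14 and in adults. The 4 P9 libraries had 3, 1, 2 and 1 regions in the windows, the 3 P14 libraries 14, 23 and 12, and the 3 adult libraries 31, 38 and 21. Means were 1.75 ± 0.957 (SD, n = 4), 16.3 ± 5.86 (n = 3) and 30.0 ± 8.54 (n = 3). All P14 libraries lay above all P9 libraries, while the P14 and adult ranges overlapped. The trend over the stages gave a Jonckheere-Terpstra statistic of 32 of a possible 33 (two-sided exact permutation p = 0.00143, adjusted 0.00714 over 5 tests). P14 exceeded P9 by 14.6 regions (exact permutation p = 0.0286, the smallest that 35 assignments can give, adjusted 0.0714), and adults exceeded P14 by 13.7 (exact permutation p = 0.2, adjusted 0.333, smallest possible 0.1).

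Sequencing depth did not follow that order: adult replicates 1 and 3 had 7510600 and 7250496 fragments, fewer than any P9 or P14 library (13379171 or more), while adult replicate 2 had 24705885, the most of all IRF8 libraries, and also the longest list. The lists themselves differed in length in the same order, from 1168 to 2068 regions at P9, from 7931 to 19243 at P14 and from 17048 to 29667 in adults. As a share of each list, the windows held 0.0801% to 0.220% at P9, 0.120% to 0.176% at P14 and 0.0937% to 0.182% in adults, and this share showed no trend that passed the test (statistic 21 of 33, exact permutation p = 0.457). With every list reduced to the length of the shortest, keeping the strongest regions, the trend statistic was 23.5 (exact permutation p = 0.184). P14 then exceeded P9 by 1.75 regions (exact permutation p = 0.286). With the P14 and adult lists cut to the shortest of those 2 groups, adults lay below P14 (a difference of -1 region, exact permutation p = 0.6). Adult replicate 3, with 22421 regions, had 21 in the windows and adult replicate 1, with 17048, had 31. These libraries also differed in batch (2 and 1) and in median region width (298 and 620 bp). The part of list length was not tested. Each stage was also called against an IgG control of its own, so that stage and control cannot be told apart.

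**Figure D1:**
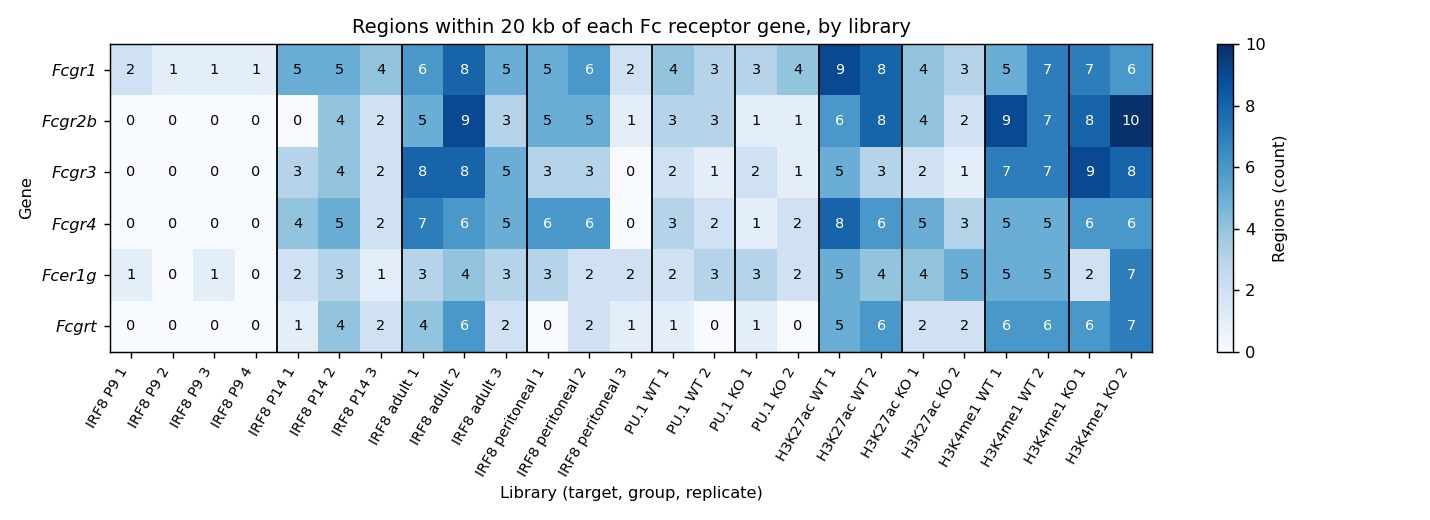
Number of regions within 20 kb of each gene (rows) in each library (columns, grouped by target and group), with the count printed in the cell and shown by colour. Fcgr1 is the only gene with a region in all 4 P9 libraries, and Fcgr2b, Fcgr3, Fcgr4 and Fcgrt have none at P9.

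Among the activating receptors, Fcgr1 alone had IRF8 regions within its window at P9; the P9 regions closest to Fcgr4 fell just short of its window and are described with the site between Fcgr2b and Fcgr4. Fcgr1 had 2, 1, 1 and 1 IRF8 regions in the P9 libraries, 5, 5 and 4 at P14, 6, 8 and 5 in adults and 5, 6 and 2 in peritoneal macrophages, so that every IRF8 library had at least 1. An IRF8 region in every library of all 4 groups was found for 1.86% of 21911 protein-coding genes. Fcgr3 had no region at P9, 3, 4 and 2 at P14 and 8, 8 and 5 in adults. Fcgr4 had none counted at P9, 4, 5 and 2 at P14 and 7, 6 and 5 in adults. Both thus had no region within their windows at P9 and one in every P14 and adult library, a pattern seen for 9.16% of protein-coding genes. For Fcgr4 this pattern rests on the window edge.

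The adapter gene Fcer1g had a region in P9 replicates 1 and 3 and in each later library, with 2, 3 and 1 regions at P14 and 3, 4 and 3 in adults. The inhibitory receptor gene Fcgr2b had none at P9, none, 4 and 2 at P14 and 5, 9 and 3 in adults, and was the only member without a region in 1 of the P14 libraries. Fcgrt had none at P9, 1, 4 and 2 at P14 and 4, 6 and 2 in adults. For each of the 6 genes the adult mean was the highest of the 3 stages, from 3.33 ± 0.577 (SD, n = 3) at Fcer1g to 7.00 ± 1.73 at Fcgr3, and neighbours in this order (Fcgr3, Fcgr1, Fcgr4, Fcgr2b, Fcgrt, Fcer1g) differed by less than their spread. The lists lengthened on average in the same order of stages. Over all protein-coding genes, 7% at P9, 32% at P14 and 50.6% in adults had an IRF8 consensus region within 20 kb. The windows were of similar length, from 44794 bp (Fcer1g) to 57931 bp (Fcgr2b).

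Cut to its 1168 strongest regions, each IRF8 list still had a region at Fcgr1 in 3 P9 libraries of 4, in all 3 P14 libraries, in 2 adult and in 1 peritoneal library of 3. Fcgr4 had a region in no P9 library, in 1 at P14, in all 3 adult and in 2 peritoneal libraries. Fcer1g had one in 2 P9 libraries, 2 P14 libraries, 1 adult library and 1 peritoneal library. Fcgr2b had one in 1 P14 library and 1 peritoneal library only, and Fcgr3 and Fcgrt had none in any list of that length, so their absence at P9 cannot be told apart from the shortness of the P9 lists. The Fcgr4 values again depend on the window edge, which leaves out the P9 regions of the site between Fcgr2b and Fcgr4.

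The strongest IRF8 site of the cluster lies between Fcgr2b and Fcgr4, and the 20 kb rule only partly counts it. The windows of these genes leave a gap of 2372 bp (chr1:170996548-170998919), and this element (chr1:170996451-170999655, ending 19265 bp before the Fcgr4 start) straddles its edges. It was present in all 25 libraries. Its rank was 62.4, 45.8, 46.3 and 58.3 in the P9 libraries, 98.2, 96.4 and 96.4 at P14, 95.1, 97.7 and 95.2 in adults and 98.7, 98.6 and 99.2 in peritoneal macrophages. All 4 P9 ranks lay below those of the other IRF8 libraries, although ranks from lists of such unequal length do not show a change. The regions of the 4 P9 libraries, of P14 replicate 3, of peritoneal replicate 3 and of all 4 PU.1 libraries lay wholly in the gap and are not counted above; with windows of 50 kb they are, and the trend statistic was again 32 (exact permutation p = 0.000952). So the P9 cells did have an IRF8 region in this cluster, at a single intergenic site.

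The composite motif of this element was covered by the IRF8 region of P9 replicates 2 and 3 and of every P14, adult and peritoneal library, by the PU.1 region of both WT libraries and by neither KO PU.1 region. The KO regions began at chr1:170998115 and chr1:170998085, just past the motif's last base at chr1:170998079, so this difference rests on where the peak edges fell. Summits lay 138 to 366 bp from it at P9, 32 to 112 bp at P14, 22 to 878 bp in adults, 22 to 148 bp in peritoneal macrophages, and 10 and 360 bp for WT PU.1 against 106 and 404 bp for KO PU.1. The 2 genotypes overlapped in this distance. The fold enrichment the authors gave to the PU.1 peak was 9.29 and 6.21 in WT and 5.49 and 5.36 in KO.

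**Figure D2:**
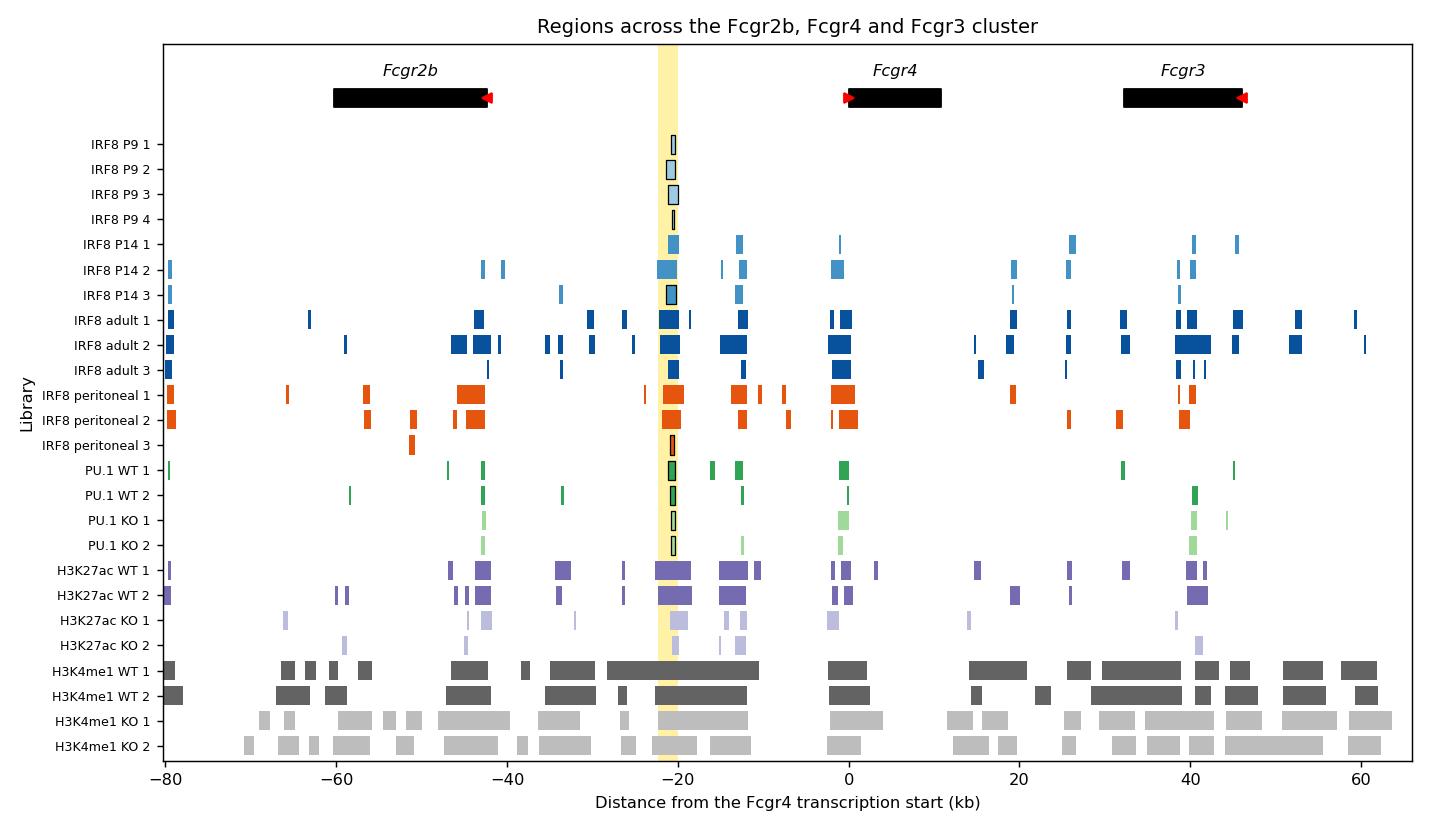
Regions of each library (rows) along the Fcgr2b, Fcgr4 and Fcgr3 cluster, by distance in kb from the Fcgr4 start. Black bars are genes with red arrowheads at their starts, the yellow band is the gap between the windows, and outlined regions lie wholly inside it. The 4 P9 libraries have a region at that site and nowhere else in the cluster.

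Fcgr1 had a comparable site upstream of its start. This intergenic element (chr3:96300055-96302447, 6086 bp before the Fcgr1 start at its near edge) also had a region in all 25 libraries. Its IRF8 rank was 85.9, 88.0, 97.4 and 6.37 at P9, 95.4, 99 and 91.2 at P14, 97.8, 98.3 and 91.2 in adults and 92.1, 80.4 and 95.0 in peritoneal macrophages. It was among the strongest regions in 3 of the 4 P9 lists and near the bottom of the list of P9 replicate 4. The Fcgr1 start itself had no P9 region, with ranks of 86.5, 61.1 and 51.4 at P14, 84.4, 91.5 and 88.3 in adults, and 69.1 and 48.2 in peritoneal replicates 1 and 2.

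At Fcer1g the chief element covered the transcription start (chr1:171232996-171235900). It was present in 23 of 25 libraries, the exceptions being P9 replicates 2 and 4. Its IRF8 rank was 43.0 and 49.3 in the other P9 libraries, 92.3, 98.4 and 84.4 at P14, 94.0, 78.7 and 68.5 in adults and 92.2, 84.1 and 93.2 in peritoneal macrophages. The adult and peritoneal ranks overlapped.

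At Fcgr3 the chief element lay in the gene body (chr1:171057131-171061358). GENCODE places the outermost Fcgr3 start 5532 bp upstream of the nearest RefSeq start, and the element covers the RefSeq start, so it may be read as a start site or as a body site depending on the annotation. Its IRF8 rank was 16.4, 36.7 and 40.0 at P14, 74.9, 73.2 and 81.4 in adults and 50.3 and 14.2 in peritoneal replicates 1 and 2, with no region at P9. The adult ranks lay above those of all other IRF8 libraries.

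Fcgr4 had 2 further strong sites. An intergenic element (chr1:171003883-171007081) ending 11839 bp before the start was found in all P14 and adult libraries, in peritoneal replicates 1 and 2 and in no P9 library. The element at the Fcgr4 start (chr1:171016514-171020009) was found in 2 P14, 3 adult and 2 peritoneal libraries. The Fcgr2b start (chr1:170972330-170976991) had an IRF8 region in 1 P14, 3 adult and 2 peritoneal libraries, with adult ranks of 41.2, 61.5 and 52.9.

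Among the members, Fcgr3 had 1 IRF8 consensus region in peritoneal macrophages and only Fcgrt had none. Over all protein-coding genes, 39.9% had one within 20 kb (58.2% of those with WT H3K27ac). Fcgrt had 0, 2 and 1 regions in the peritoneal libraries. Its strongest element (chr7:45117202-45118276, 13351 bp upstream) had a region in all 3 P14 libraries (ranks 84.2, 65.5 and 80.4) and all 3 adult libraries (87.1, 90.7 and 86.6). Among the peritoneal libraries it was present in replicate 3 only, at rank 8.06. A second element, in an Fcgrt intron (chr7:45097362-45098181), was found in 2 P14, 2 adult and no peritoneal libraries.

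**Figure D3:**
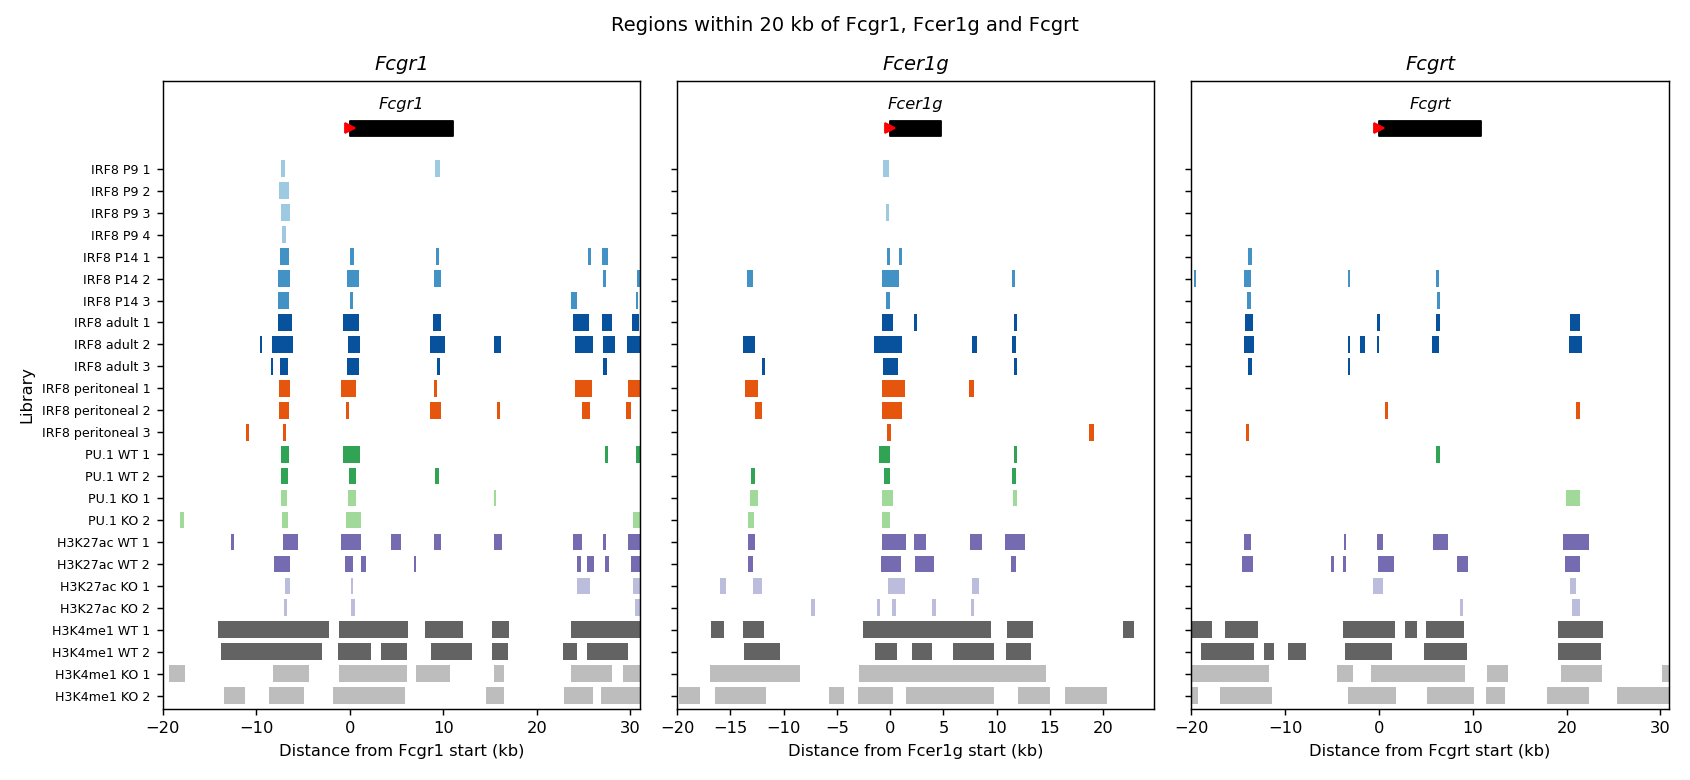
Regions of each library (rows, as labelled on the left) within 20 kb of Fcgr1, Fcer1g and Fcgrt, by distance in kb from the start of each gene in its direction of transcription. Black bars are gene bodies. The upstream Fcgr1 element is present in every row, and the Fcgrt panel has no P9 region.

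Adult microglia and peritoneal macrophages were compared to ask which sites are used in only one of these macrophages. The adult libraries had 31, 38 and 21 regions and the peritoneal ones 21, 23 and 6, a difference of 13.3 (exact permutation p = 0.3, adjusted 0.375, smallest possible 0.1). The ranges overlapped, with peritoneal replicate 2 above adult replicate 3. With lists cut to the length of the shortest in these groups the difference was 4.33 (exact permutation p = 0.1). Within batch 1 (2 libraries each) adults exceeded peritoneal cells by 12.5 regions and within batch 2 (1 each) by 15.0. Peritoneal replicate 3 had the shortest list of its group, 9788 regions against 16994 and 23163; without it the difference was 8. As a share of the list the peritoneal libraries held 0.0613% to 0.135%. The IgG control differed between the tissues, so tissue and control cannot be told apart.

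Of 26 elements with regions in at least 2 adult libraries, 9 had none in a peritoneal library (34.6%, background 39.9% of such elements over the genome). They include 2 intergenic sites upstream of Fcgr2b, the outermost Fcgr3 start, the Tomm40l start near Fcer1g, an intergenic site beside Hist2h3b and the Fcgrt intron and start. The reverse pattern was seen at 2 of 15 elements (13.3%, background 30.2%), both in the Fcgr2b body (chr1:170962036-170962985 in an intron and chr1:170967441-170968415 at an exon), each in 2 of 3 peritoneal and no adult library. The elements shared by every P14, adult and peritoneal library were 3: the site between Fcgr2b and Fcgr4, the upstream Fcgr1 site and the Fcer1g start. Of the 26 adult consensus regions, 12 overlapped a peritoneal one (46.2%, against 39.5% of all adult consensus regions), and of the 15 peritoneal ones 12 overlapped an adult one (80.0%, against 56.3%). As a check of the cell labels, all 7 microglial marker genes had an adult IRF8 consensus region within 5 kb, and all 6 peritoneal macrophage markers had a peritoneal one, Gata6, Icam2 and Selp in peritoneal cells only. Within 20 kb, 50.6% of all protein-coding genes had an adult consensus region and 39.9% a peritoneal one. The shares within 5 kb were not computed. The markers were not exclusive: 4 of 7 microglial genes, among them P2ry12, Cx3cr1 and Csf1r, also had a peritoneal region, and 3 of 6 peritoneal genes (Timd4, Adgre1 and Lyz2) an adult one. Among markers of other cells, 1 of 4 neuronal genes (Rbfox3) and 1 of 4 oligodendrocyte genes (Mog) had an IRF8 consensus region in both. So did 2 of 4 astrocyte genes (Aldh1l1 and Slc1a2) and 1 of 3 T and B cell genes (Ms4a1). The rest had none in either. What the markers of other cells contribute was not tested.

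The overlaps between groups were read against those of all consensus regions. Of the 16 P14 consensus regions in the windows, all 16 overlapped an adult consensus region, near the general share of 92.6%, and of the 26 adult ones 15 overlapped a P14 region (57.7%, background 43.2%) and 3 a P9 region (11.5%, background 7.76%). All 26 adult regions overlapped WT H3K4me1 (background 91.3%), 18 overlapped WT H3K27ac (69.2%, background 81.8%) and 8 overlapped WT PU.1 (30.8%, background 27%). Conversely, all 7 WT PU.1 consensus regions in the windows overlapped an adult IRF8 region (background 87.4%), as did 19 of the 23 WT H3K27ac regions (82.6%, background 35.3%).

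Each PU.1 consensus region of WT microglia near these genes had a peak in at least 1 KO library. Replicate 2 of each genotype was called at q 0.05 with another control, and replicate 1 at q 0.01. The WT libraries had 15 and 12 regions in the windows and the KO libraries 11 and 10. Of 7 WT consensus regions 0 were lost, that is, without a peak in either KO library, where 25.1% of all 5359 WT PU.1 consensus regions were lost, and 23.2% of those that, like these 7, overlapped an adult IRF8 region. Of 7 KO consensus regions 0 were gained (background 16.5%). Of these 7, 6 overlapped an adult IRF8 consensus region (background 8.3% gained) and 1 did not (background 46.1%). Counting single libraries, 10 of 21 elements with PU.1 in a WT library had none in a KO library (47.6%, background 61.7%), and 4 of 15 with PU.1 in a KO library had none in a WT library (26.7%, background 61.9%). The smallest exact p that 2 against 2 allows is 0.333, and genotypes were therefore not tested.

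The PU.1 ranks at the retained sites describe each list. They are no measure of change, since the lists differed in length, cutoff and control. The Fcer1g start was among the strongest PU.1 regions of every list, at 99.1 and 91.5 in WT and 99.6 and 99.9 in KO. The Fcgr1 start followed, at 90.6 and 93.5 in WT and 97.7 and 97.9 in KO, and the Fcgr4 start had 72.6 and 70.7 in WT and 68.9 and 70.1 in KO. At the Fcgr2b start the ranks were 68.0 and 10.1 in WT and 77.0 and 87.4 in KO. At these 4 starts PU.1 was present in all 4 libraries.

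PU.1 was also found away from these starts. The upstream Fcgr1 site had 72.6 and 81.2 in WT and 82.4 and 36.6 in KO, and the gap site had 84.6 and 74.6 in WT and 56.2 and 70.1 in KO. The element upstream of Fcgr4 (chr1:171003883-171007081) had 80.8 and 83.8 in WT and, in KO, a region in replicate 2 only, at 30.1. The Tomm40l start had 42.2 and 70.7 in WT and a region in KO replicate 1 only, at 63.7. These 2 sites count as kept because 1 KO library had a peak; with KO presence required in both libraries, 2 of 7 would be lost (background 48.0%). The Fcgr3 body site had PU.1 in WT replicate 2 and in both KO libraries. No PU.1 consensus region lay in the Fcgrt window in either genotype.

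H3K27ac regions were fewer in KO near these genes. The WT libraries had 35 and 33 regions in the windows and the KO libraries 20 and 16, and these numbers did not overlap. As a share of each list they were 0.0484% and 0.0453% in WT and 0.0226% and 0.0508% in KO, which overlapped. Of 23 WT consensus regions 9 were lost in KO (39.1%), beside 34% of all 36697 WT H3K27ac consensus regions, and 0 of 9 KO consensus regions were gained (background 10.9%). The share lost was thus near that of the whole list. Of the 9 KO consensus regions, 7 overlapped an adult IRF8 consensus region (background 0.19% gained) and 2 did not (background 19.7%). KO replicate 2 was shallow, with 8572250 fragments and 31524 regions, the fewest of the 4 H3K27ac libraries, whereas KO replicate 1 had 88400 regions, more than either WT list (72354 and 72875); against KO replicate 1 alone 11 of 23 were lost (background 37.3%) and against KO replicate 2 alone 14 of 23 (background 72.9%). Cell type markers with an H3K27ac consensus region within 5 kb also differed between genotypes: 7 of 7 microglial genes in WT and 5 of 7 in KO, 3 of 4 oligodendrocyte genes (Mog, Mag and Cldn11) and 0 of 4, 2 of 4 astrocyte genes and 1 of 4, 1 of 3 T and B cell genes (Ms4a1) and 0 of 3, and no neuronal gene in either. Peritoneal macrophage markers had one at 3 of 6 genes in WT and 1 of 6 in KO. Of all protein-coding genes, 61.7% in WT and 30.1% in KO had one, counted within 20 kb rather than 5 kb. The part of the markers in the result was not tested.

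The windows of all 6 genes held at least 1 lost H3K27ac region. Over the genome, 57.1% of protein-coding genes with an H3K27ac consensus region within 20 kb had at least 1 lost. At Fcgr4 the region over the transcription start (chr1:171018012-171019438; fold enrichment 4.20 and 5.89 in WT) was lost, with the nearest KO peak 252 bp away, while its upstream sites were kept. Fcgr2b lost 3 of 5: chr1:170938157-170939603 on the side of Fcrla, chr1:170984495-170986416 (whose IRF8 sequence is shown above, with a KO peak 328 bp away) and chr1:170992385-170992752. Fcgrt lost 2 of 4, the IRF8-bound upstream site (chr7:45117288-45118499, fold enrichment 5.55 and 5.23 in WT) and chr7:45107366-45107680. Fcgr3 and Fcgr4 share the lost chr1:171044536-171045084, Fcer1g lost the region at the Tomm40l start (chr1:171221713-171223548) and Fcgr1 lost chr3:96266206-96266824 beside Hist2h3b. Of these 9 regions, 7 overlapped an adult IRF8 consensus region: 7 of 19 IRF8-overlapping regions were lost (36.8%, background 21%) and 2 of 4 others (50%, background 41.2%). The lost regions had a median rank in WT of 55.9 against 78.0 for the kept ones. The ranges overlapped, at 15.2 to 81.7 and 31.6 to 94.6.

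The kept H3K27ac regions include the start sites of Fcgr1 and Fcer1g, with a peak in both KO libraries, and of Fcgr2b and Fcgrt, with a peak in KO replicate 1 only. At the Fcgrt start the rank was 54.8 and 82.5 in WT and 95.1 in that KO library, and at the Fcgr2b start 89.6 and 83.7 in WT and 60.5 in KO. At the Fcgr1 start, H3K27ac ranked 92.0 and 90.3 in WT and 30.3 and 25.3 in KO, and at the Fcer1g start 64.2 and 82.7 in WT and 17.8 and 14.7 in KO. At the Fcgr1 and Fcer1g starts both KO values were lower than both WT values. At the gap site between Fcgr2b and Fcgr4 the ranks were 95.3 and 93.9 in WT and 98.6 and 86.9 in KO, and at the upstream Fcgr4 element 66.0 and 96.7 in WT and 95.6 and 80.3 in KO, so that these overlapped between genotypes. The upstream Fcgr1 site had 87.0 and 91.4 in WT and 84.7 and 45.1 in KO. Since the lists differ in length, these ranks describe each list and are no measure of change.

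**Figure D4:**
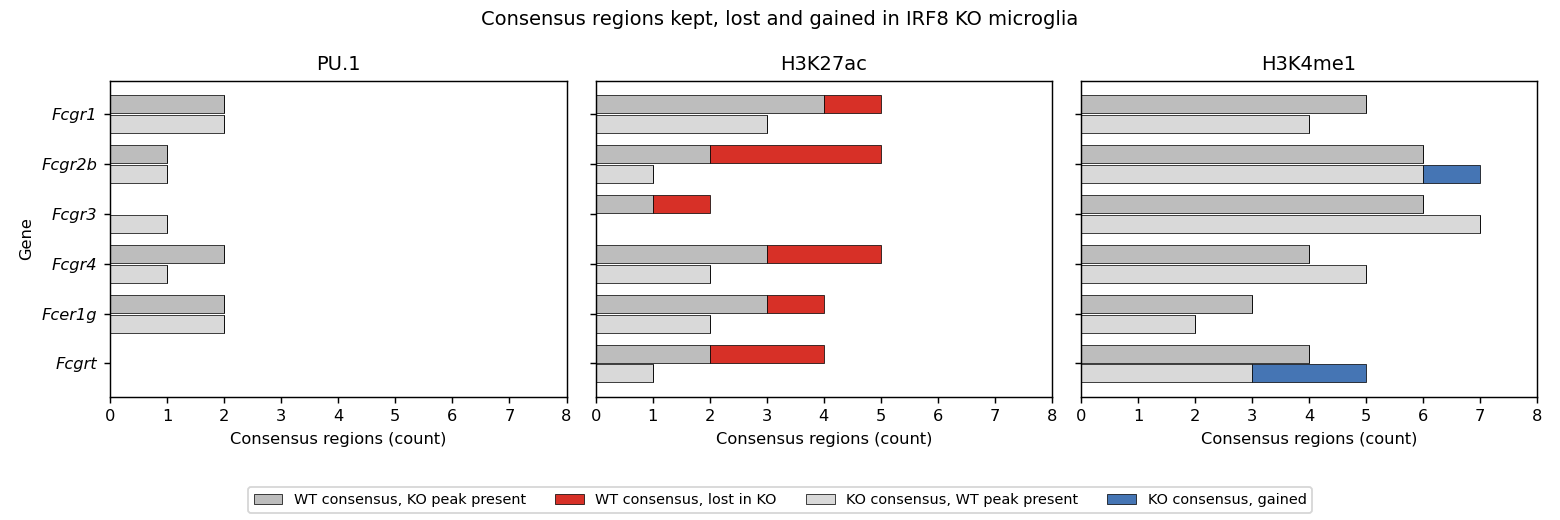
Consensus regions at each gene for PU.1, H3K27ac and H3K4me1. Upper bars are WT consensus regions, with those lost in KO in red, and lower bars are KO consensus regions, with those gained in blue; a region shared by neighbouring genes is drawn at each. Red appears for H3K27ac only, at all 6 genes, and blue for H3K4me1 only, at Fcgr2b and Fcgrt. Of all protein-coding genes with a consensus region of the mark within 20 kb, 57.1% had a lost H3K27ac region and 51.2% a gained H3K4me1 region.

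H3K4me1 covered the loci in both genotypes. The WT libraries had 33 and 33 regions and the KO libraries 34 and 40. Of 25 WT consensus regions 0 were lost (background 13%). Of these, 20 overlapped an adult IRF8 consensus region (background 2.86% lost) and 5 did not (background 16.2%). Of 26 KO consensus regions 3 were gained (11.5%, background 23.8%): one in the Fcgr2b body (chr1:170964407-170968916, fold enrichment 4.17 and 3.26), one at Nosip (chr7:45070423-45078497) and one at the Rcn3 start (chr7:45090113-45092501), both beside Fcgrt. None of the 3 overlapped an adult IRF8 consensus region, and of the 10 KO regions without IRF8 in the windows these made 30.0% (background 29%). The Fcgr2b region overlapped the exon site bound by IRF8 in peritoneal macrophages. KO replicate 2 had 189351 H3K4me1 regions, the longest of the 4 lists.

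The wider receptor pathway was taken as 36 genes for kinases, adapters, phagocytic effectors, inhibitors and other immunoglobulin receptors. An IRF8 consensus region within 20 kb was found for 12 of them at P9, for 30 at P14, for 35 in adult microglia and for 30 in peritoneal macrophages, against 7%, 32%, 50.6% and 39.9% of protein-coding genes. Among genes with WT H3K27ac in the window the background was 10.8%, 49.3%, 76.4% and 58.2%, and differences in gene length were not examined. The presence pattern of Fcgr1 (every IRF8 library) was shared by Lyn, Lat2, Lcp2, Vav1 and Prkcd, that of Fcer1g by genes including the inhibitors Cbl and Sirpa, that of Fcgr2b by Btk and Coro1a, and the common pattern of Fcgr3, Fcgr4 and Fcgrt by the adapter gene Blnk and the oxidase subunit gene Ncf1. Among all 21911 genes these patterns were shared by 407, 416, 698 and 704 genes. Over all 10 groups, 39 genes had the same number of libraries as Fcgrt in each group, the fewest of the 6 genes, and 302 the same as Fcgr1, the most.

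In KO the pathway genes lost 9 of 77 WT PU.1 consensus regions (background 25.1%) and gained 3 of 68 (background 16.5%). The genes with a lost PU.1 region included Btk (1 of 2), Pik3cd, Pik3cg, Dock2, Prkcd, Inpp5d and Sirpa (1 each), and those with a gained one were Arpc1b, Prkcd and Cbl. They lost 55 of 202 WT H3K27ac regions (background 34%), in 28 of 33 genes with such a region, where 57.1% of all protein-coding genes with an H3K27ac consensus region had at least 1 lost. Syk, the kinase downstream of Fcer1g, and the adapter Tyrobp lost none, at 0 of 5 and 0 of 4. The same held for the inhibitor Sirpa (0 of 9) and for Coro1a and Ncf1 (0 of 2 each). Inpp5d, the phosphatase downstream of Fcgr2b, lost 2 of 8. For H3K4me1 the pathway genes lost 8 of 183 (background 13%) and gained 27 of 195 (background 23.8%).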

How the data were processed

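CUT&RUN peak lists of 25 libraries were used, called by the authors with MACS 2.2.7.1 (IRF8, PU.1) or 2.2.6 (histone marks) against IgG controls, per the file headers. The cutoff was q 0.01 for IRF8, H3K27ac and PU.1 replicate 1, q 0.05 for PU.1 replicate 2 and p 0.01 with broad calling for H3K4me1, per the file headers. The submitters' processing notes name bcl2fastq, Trim Galore, Bowtie2, deepTools and mm10. The deposited values of a peak are its pileup (signal), its fold enrichment over the control (ratio) and −log10 p and q, all computed by the authors' peak caller per library. Depth was 7250496 to 24705885 fragments per library, per the file headers.

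Here, repeated chromosome, start and end entries were counted once, and a region belonged to a gene if it overlapped by at least 1 bp the GENCODE vM21 gene body extended by 20 kb. A consensus region is merged from peaks of at least 2 libraries of a group. Lost and gained mean no peak in either library of the other genotype. Exact permutation tests compared the number of regions per library (two-sided, Benjamini-Hochberg over 5 tests), which were also tested on simulated data. Members are all named; pathway genes are named where a PU.1 region is lost or gained or where their IRF8 presence matches a member's, and Syk, Tyrobp and Inpp5d were named after their values were seen. Some results on other genes are not reported here. The members and lists were chosen with earlier results of these data known. Alternatives covered window size, peak strength, list length, the definition of loss, the replicate block and leaving out each library. Python 3.11.15, pandas 2.3.3, NumPy 2.4.6, pysam 0.24.0 and matplotlib 3.10.9 were used.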

Additional observations from a re-analysis of the deposited data

Results flagged for a closer look

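In 12 measures over the 4 P9 libraries, Dixon's gap ratio was compared with its 95% critical value, which chance exceeds in about 1 in 20 groups, and 3 measures exceeded it. P9 replicate 1 had 2 IRF8 regions in the Fcgr1 window where each of the other libraries had 1. With 3 tied counts any other count exceeds the critical value, so this is given as a value only. The share of its list in the windows, 0.220%, also stood apart from the others (0.0801% to 0.0967%). P9 replicate 4 had a rank of 6.37 at the element upstream of Fcgr1, where the others had 85.9, 88.0 and 97.4.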

How the results depend on the processing

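Of 133 alternative values, 80 kept their direction and call or stayed within 1.5 times, 40 moved, 10 lost the call, 0 gained one and 3 reversed; except where the design sets it, the cause was not tested. With lists of equal length the stage trend was 23.5 (exact p = 0.184), P14 minus P9 1.75 (exact p = 0.286) and adult minus P14 -1 (exact p = 0.6). The trend of the percentage reversed with 50 kb windows (14, exact p = 0.711) and at −log10 p of at least 10 (16, exact p = 1). Leaving out 1 library gave 11.2 to 16.8 for P14 minus P9 (exact p = 0.0667 or 0.1), and the replicate block 14.3 (exact p = 0.25). Those p-values are the smallest these designs allow, so 8 of the 10 lost calls follow from the design. The labels tie replicate 3 of the adult and peritoneal groups to batch 2 and replicates 1 and 2 to batch 1, and replicate 2 of both PU.1 genotypes shares a control. The numbers were otherwise not taken as pairs, since correlations of same-numbered libraries ran from -0.122 to 0.120; each adult library matched the peritoneal library of its own number best.

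Shares over all regions are in brackets. PU.1 lost in KO was 1 of 5 at −log10 p of at least 10 (28.1%), 1 of 7 where under 50% cover counts as lost (38.1%), 2 of 7 against the other consensus (48.0%) and 7 of 13.5 with the replicate block. Leaving out 1 library it ran from 1 of 7 (35.6%, without KO replicate 2) to 7 of 15 (58.6%, without WT replicate 2). PU.1 gained was 1 of 7 (30.8%) and 2 of 7 (39.1%) under these definitions, 4 of 10.5 with the block, and in number from 0 of 7 (31%) to 3 of 11 (47.3%) leaving out 1, with the largest share at 2 of 7 (24.3%, without WT replicate 2). H3K27ac lost was 2 of 9 with 5 kb windows and 16 of 35 with 50 kb (34.0%), 5 of 8 at −log10 p of at least 10 (50.7%), 16 of 23 under 50% cover (68.8%), 16 of 23 against the consensus (78.4%) and 21.5 of 34 with the block. Leaving out 1 library its number ran from 11 of 23 (37.3%, without KO replicate 2) to 20 of 35 (54.5%, without WT replicate 2), and its share from 15 of 33 (59.5%, without WT replicate 1) to 14 of 23 (72.9%, without KO replicate 1). H3K27ac gained was 2 of 9 against the consensus (19.7%), 4.5 of 18 with the block, and from 1 of 9 (17.6%) to 5 of 20 (55.9%) leaving out 1. H3K4me1 lost was 1 of 25 under both stricter definitions (25.2% and 30.3%), 3 of 33 with the block, and from 0 of 25 (24.7%) to 2 of 33 (44.1%) leaving out 1. H3K4me1 gained was 7 of 47 with 50 kb (23.8%), 8 of 37 with the block, and in number from 3 of 26 (32.6%) to 7 of 40 (56.0%) leaving out 1, with the largest share at 5 of 26 (35.9%, without WT replicate 1). No H3K4me1 region reached −log10 p of 10, so that setting gave no value.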
